A study of Mus musculus with 15 samples.

Results

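Gbx2, the LIM-homeodomain factors Lhx1, Lhx2, Lhx5 and Lhx9, and the LIM cofactors Ldb1, Ldb2, Lmo1, Lmo3 and Lmo4 were followed through sorted cells of the embryonic mouse thalamus. Every row of the expression table that named exactly 1 of these 10 genes was taken, which gave 11 of the 23521 rows that named a single gene. Gbx2 had 2 rows and each other gene had 1. One further row named Lhx1 together with a second gene and was not used.

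All embryos had the genotype Gbx2CreER-IRES-EGFP/+::R26lsl-tdTomato/+ on a c57/BL6 background, so that every group carried 1 modified Gbx2 allele that drives CreER and EGFP. Green fluorescence reads out current activity of the Gbx2 locus, and red fluorescence marks cells in which CreER acted on the reporter after tamoxifen, together with their descendants. At E18.5, after 4 mg tamoxifen given to the pregnant female at E9, red, green and double-labelled cells were collected. At E14.5, after the same dose of 4 mg at E9.5, red and green cells were collected. Each of the 5 groups had 3 biological replicates, each on 1 array, for 15 arrays in all. The sort gates were not given in the sources used here, and the labels do not say how many embryos went into a replicate. Stage and day of tamoxifen cannot be told apart, and neither can a smaller number of cells of a type and less RNA per cell. Double-labelled cells were collected at E18.5 only, and it is not known into which group such cells fell at E14.5. A stage change of any gene, or of its red-green difference, therefore cannot be told apart from this difference in the sort.

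LIM-homeodomain factors bind DNA through a homeodomain and bind LDB proteins through paired LIM domains. LDB proteins dimerize, and so join LIM factors into larger complexes on DNA, while LMO proteins consist of LIM domains without a DNA-binding domain and compete for the same LDB surface. Gbx2 is a homeodomain factor of young thalamic neurons that is needed for their differentiation and axon growth, and Lhx2 and Lhx9 are the LIM-homeodomain factors best known from the thalamus, where Lhx2 acts on Robo receptors that steer thalamocortical axons.

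The bases before the start sites are shown for 5 members whose levels differed between groups or ran opposite to the rest, since homeodomains of these families commonly bind sites with a TAAT core. Each window holds the 250 bases upstream of the start site that RefSeq lists first, in build GRCm38.p6. It is written along the gene's strand, with TAAT and its reverse complement ATTA in capitals.

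Gbx2, chr1:89931177-89931426, minus strand: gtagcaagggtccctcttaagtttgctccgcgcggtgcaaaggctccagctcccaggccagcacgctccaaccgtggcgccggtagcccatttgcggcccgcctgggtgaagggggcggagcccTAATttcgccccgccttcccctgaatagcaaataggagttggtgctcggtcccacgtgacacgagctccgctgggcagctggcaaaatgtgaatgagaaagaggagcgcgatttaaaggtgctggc
Lhx9, chr1:138842445-138842694, minus strand: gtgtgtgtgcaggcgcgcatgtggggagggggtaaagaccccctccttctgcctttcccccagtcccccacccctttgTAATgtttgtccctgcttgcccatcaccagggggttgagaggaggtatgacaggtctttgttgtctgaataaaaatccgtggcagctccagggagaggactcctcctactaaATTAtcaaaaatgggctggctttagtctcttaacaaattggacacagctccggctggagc
Lhx2, chr2:38339031-38339280, plus strand: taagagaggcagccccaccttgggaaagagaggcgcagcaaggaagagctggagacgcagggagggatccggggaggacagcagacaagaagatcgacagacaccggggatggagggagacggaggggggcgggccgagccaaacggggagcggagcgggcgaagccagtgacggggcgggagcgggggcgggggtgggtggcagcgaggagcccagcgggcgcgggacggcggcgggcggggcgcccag
Lmo3, chr6:138581969-138582218, minus strand: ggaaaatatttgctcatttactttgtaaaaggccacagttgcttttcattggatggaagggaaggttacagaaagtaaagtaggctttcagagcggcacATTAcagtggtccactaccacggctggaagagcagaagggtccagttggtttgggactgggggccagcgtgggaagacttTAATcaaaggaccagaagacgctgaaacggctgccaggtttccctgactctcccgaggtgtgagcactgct
Lmo1, chr7:109175208-109175457, minus strand: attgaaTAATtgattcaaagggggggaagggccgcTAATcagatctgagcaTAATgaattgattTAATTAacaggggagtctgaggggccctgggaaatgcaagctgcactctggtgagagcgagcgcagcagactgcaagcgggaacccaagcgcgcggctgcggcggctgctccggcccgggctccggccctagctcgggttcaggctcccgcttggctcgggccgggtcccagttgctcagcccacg

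Entries were found for 8 of the 10 genes, with 14 start sites, and Ldb2 and Lhx5 had none in the table used. TAAT or ATTA lay in 7 of the 14 windows, against 54.9% of all 32851 windows of this length, so the letters were about as frequent here as elsewhere. The longer TAATTA, which contains both, lay in 2 overlapping windows of 1 gene, Lmo1, against 4.84% of all windows. The Lmo1 window above begins with a cluster of such letters, whereas the Lhx2 window, which is rich in G and C, held none. A match describes the letters and is no evidence of binding.

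Values are log2 signals, in which 1 unit is a doubling, and they can be set side by side between arrays for 1 row but not between rows. The mean of all values was 6.17 to 6.19 on the E18.5 arrays and 5.63 to 5.65 on the E14.5 arrays, so levels are compared within a stage, and stage differences are given after each array was centred on its median. Replicate 1 of the E18.5 red cells and replicate 1 of the double-labelled cells had a narrower spread of values than the other E18.5 arrays, with SDs of 1.34 and 1.31 against 1.44 to 1.51, and are called the narrow arrays below. The E14.5 arrays had SDs of 1.32 to 1.38. The array means over 8 thalamic neuron genes were 9.22 to 9.72 in E18.5 red, 9.65 to 9.72 in green and 9.28 to 9.69 in double-labelled cells. At E14.5 they were 9.18 to 9.33 in red and 8.74 to 9.07 in green cells. At E18.5, 6 of the 8 were lower in red than green cells. The test passed 1 of the 8 as higher in red than green cells at E18.5 and 2 at E14.5, and 0 as lower. Of 6 habenula genes, 1 passed as higher in E18.5 red than green cells. Tcf7l2, a transcription factor of thalamic and habenular neurons, had group means of 11.55 to 12.00, and Slc17a6, the vesicular glutamate transporter of thalamic relay neurons, lay between 9.38 and 10.69 on all 15 arrays. Midbrain dopamine neuron genes were not even between the groups. The array means over a list of 11 such genes were 7.11 to 7.47 in E18.5 red cells, 6.03 to 6.20 in E18.5 green cells and 6.36 to 6.41 in double-labelled cells. At E14.5 they were 5.62 to 5.70 in red and 5.46 to 5.55 in green cells. These are deposited levels, to be compared within a stage. Of the 11, 7 (Th, Slc6a3, Slc18a2, Ddc, Nr4a2, Foxa1 and Aldh1a1) passed the test as higher in E18.5 red than green cells. Their part in the E18.5 differences below was not tested.

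Differences were tested with limma on all 15 arrays, and a row was called when its adjusted p over all 17641 rows tested was under 0.05. Of the 11 member rows, 10 were bright enough to be tested, and Lhx5 was not. Values of an array group are given in the order of replicates 1 to 3.

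Gbx2 itself followed the sort, as the design requires. At E18.5 its first and brighter row stood at 6.44, 7.16 and 5.45 in red cells, at 8.50, 8.55 and 8.23 in green cells and at 8.00, 8.50 and 8.48 in double-labelled cells. All red arrays lay below all others, and green and double-labelled arrays overlapped. Red cells were lower than green cells by 4.21-fold (log2 difference -2.07, SE 0.30, limma adjusted p = 0.0056), and double-labelled cells were higher than red cells by 3.93-fold (log2 difference 1.97, adjusted p = 0.020). Since EGFP comes from this locus, these differences check the labels and are not a finding. The red cells scattered more than the others, with an SD of 0.86 against 0.17 in green cells.

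At E14.5 the same row stood at 7.33, 7.28 and 7.30 in red cells and at 7.88, 8.21 and 8.13 in green cells. The groups did not overlap, with a difference of -0.77 (SE 0.30), but the call was not reached in the fit of all arrays (limma adjusted p = 0.28). With the 6 E14.5 arrays alone the adjusted p was 0.0032. The difference at E18.5 exceeded that at E14.5 by -1.30, which did not pass (adjusted p = 0.25), and without replicate 2 of the E18.5 red cells it did (-1.71, adjusted p = 0.025). Relative to the array median, Gbx2 fell by 1.60 from E14.5 to E18.5 in red cells (adjusted p = 0.0013), while green cells differed by -0.35 (adjusted p = 0.38), or by 0.35 on the deposited values, and neither passed. Both stages were sorted on EGFP from this locus, and double-labelled cells were collected at E18.5 only. A stage change of either Gbx2 row therefore cannot be told apart from the sort.

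The second Gbx2 row showed the same order at a smaller scale. It stood at 6.18, 6.45 and 6.22 in E18.5 red cells, at 7.07, 7.45 and 6.74 in green cells and at 6.96, 7.17 and 7.12 in double-labelled cells. At E14.5 it stood at 6.12, 6.48 and 6.45 in red cells and at 6.67, 7.15 and 6.64 in green cells. Red was below green in all arrays at both stages. The differences were -0.80 at E18.5 (adjusted p = 0.074, and 0.043 without replicate 3 of the green cells, where the difference was -0.98) and -0.47 at E14.5 (adjusted p = 0.27). Relative to the array median this row fell with stage by 0.72 in red cells (adjusted p = 0.010), a call that was lost on the deposited values (-0.07, adjusted p = 0.75). In green cells it differed by -0.44 (adjusted p = 0.075), by 0.27 on the deposited values, and by -0.62 without replicate 2 of the E18.5 green cells (adjusted p = 0.018). Of the 20 single-gene rows nearest to it in the table, 19 name genes of the plus strand and 0 of the minus strand, whereas Gbx2 lies on the minus strand, as do 18 of the 20 genes around the brighter row. The strand that the second row reads is therefore uncertain. Gbx1, the other gene of the family, lay under the brightness limit of 5.07 and was not tested.

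**Figure D1:**
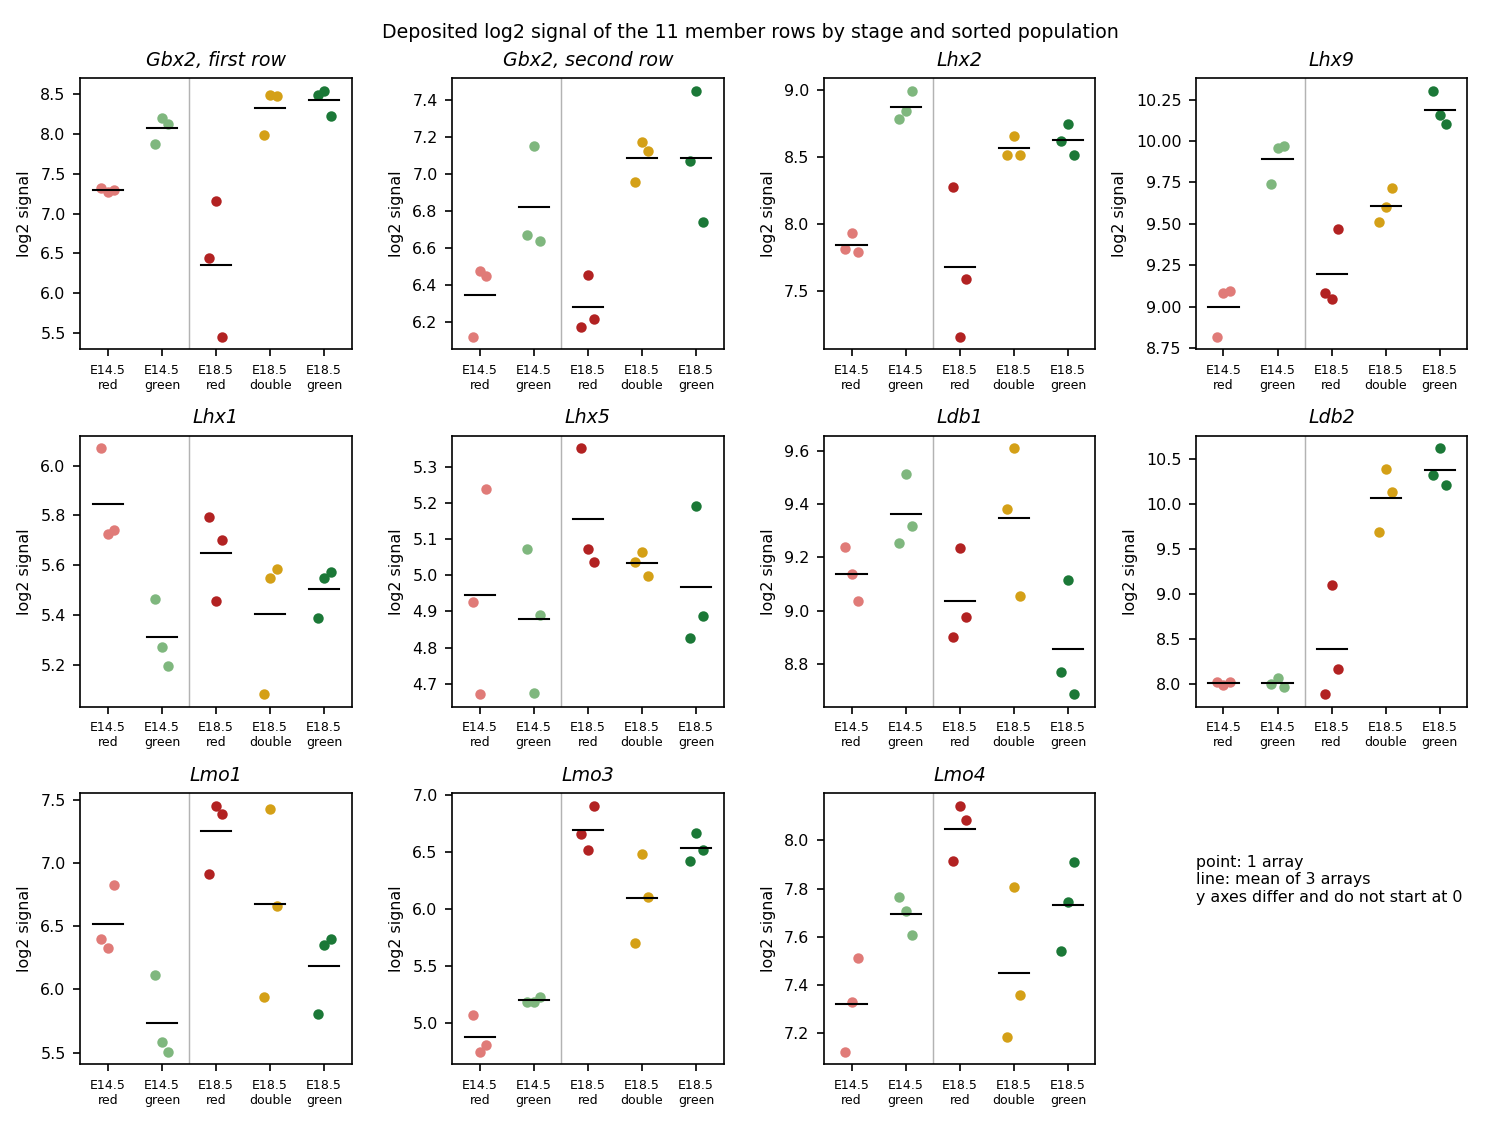
Log2 signal of the 11 member rows (y axis, 1 panel per row, scales differ and do not start at 0) in the 5 groups (x axis); each point is 1 array and each line the mean of 3 arrays. Gbx2, Lhx2 and Lhx9 are lower in red than green cells at both stages, and Ldb2 at E18.5 alone, where it is 7.89 to 9.10 in red and 10.21 to 10.62 in green cells.

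Among the LIM-homeodomain factors, Lhx9 was called lower in red than green cells at both stages and Lhx2 at E14.5. Lhx9 at E18.5 was 9.08, 9.05 and 9.47 in red cells, 10.30, 10.16 and 10.10 in green cells and 9.51, 9.60 and 9.71 in double-labelled cells. The 3 populations formed 3 steps without overlap, red lowest, double-labelled between and green highest. Red cells were lower than green cells by 1.98-fold (log2 difference -0.99, SE 0.13, limma adjusted p = 0.0039). The remaining steps, of -0.58 between double-labelled and green cells (adjusted p = 0.27) and 0.41 between double-labelled and red cells (adjusted p = 0.69), did not pass. At E14.5 Lhx9 was 8.82, 9.09 and 9.10 in red cells and 9.74, 9.96 and 9.97 in green cells, again without overlap, and red cells were lower by 1.85-fold (log2 difference -0.89, SE 0.13, adjusted p = 0.0017). The red-green difference was of like size at both stages: its change from E14.5 to E18.5 was -0.10, with a 95% confidence interval of -0.50 to 0.30.

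Lhx2 at E18.5 was 8.28, 7.15 and 7.59 in red cells, 8.62, 8.75 and 8.52 in green cells and 8.52, 8.66 and 8.52 in double-labelled cells. Red arrays lay below all others, and double-labelled arrays lay within the green range. The difference between red and green cells, -0.95 (SE 0.20), just missed the threshold (limma adjusted p = 0.054). The call turned on replicate 1 of the red cells, 1 of the narrow arrays, without which the difference was -1.26 (adjusted p = 0.00078) and the difference between double-labelled and red cells was 1.19 (adjusted p = 0.0023, against 0.22 with all arrays). Double-labelled and green cells differed by -0.06, with an interval of -0.50 to 0.37. At E14.5 Lhx2 was 7.81, 7.93 and 7.79 in red cells and 8.78, 8.84 and 9.00 in green cells. Red cells were lower by 2.05-fold without overlap (log2 difference -1.03, SE 0.20, adjusted p = 0.010), a call that was lost without replicate 3 of the green cells (-0.97, adjusted p = 0.067) and after quantile normalization (-0.94, adjusted p = 0.058). The change of the difference with stage was 0.08, with an interval of -0.53 to 0.69.

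Lhx1, which marks several diencephalic and other brain regions outside the main thalamic nuclei, was dim and ran the other way at E14.5. It was 6.07, 5.73 and 5.74 in red cells and 5.46, 5.27 and 5.19 in green cells of that stage. Red was higher in all arrays, by 0.54 (SE 0.15), with a limma adjusted p of 0.081 that fell to 0.028 with the E14.5 arrays alone and to 0.011 without both narrow E18.5 arrays. The array means over 7 genes of GABAergic and prethalamic neurons were 5.67 to 5.90 in E14.5 red cells and 5.50 to 5.64 in green cells. Their red-green differences had a median of 0.105 and ran from -0.03 to 0.82, with 6 positive and 1 negative. Only 1 was called, the widest: Gad2, which makes the transmitter GABA, was higher in red cells by 0.82 (adjusted p = 0.014). Their part in the Lhx1 difference was not tested. At E18.5 Lhx1 was 5.79, 5.46 and 5.70 in red, 5.39, 5.55 and 5.57 in green and 5.08, 5.55 and 5.59 in double-labelled cells, which overlapped. Lhx5 lay between 4.67 and 5.35 on all 15 arrays, near the lowest signals of the table, and no difference in it could be read.

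Of the LDB cofactors, Ldb2 differed between red and green cells at E18.5 by about as much as the brighter Gbx2 row. No difference in Ldb2 was seen at E14.5. At E18.5 it stood at 7.89, 9.10 and 8.17 in red cells, at 10.32, 10.62 and 10.21 in green cells and at 9.69, 10.39 and 10.14 in double-labelled cells. Red lay below both other groups, which overlapped. Ldb2 was lower in red than green cells by 4.00-fold (log2 difference -2.00, SE 0.25, limma adjusted p = 0.0024), and was higher in double-labelled than red cells by 3.22-fold (log2 difference 1.69, SE 0.25, adjusted p = 0.018). At E14.5 it stood at 8.02, 7.99 and 8.03 in red cells and at 8.01, 8.07 and 7.96 in green cells. These ranges coincided, and the difference was -0.00062 with an interval of -0.53 to 0.53. The change of the red-green difference between stages was -2.00 (SE 0.35, adjusted p = 0.013), and Ldb2 was the only member row called in it, against 0.533% of all rows called lower and 1.07% in either direction. With 1 array left out at a time, its adjusted p was 0.00054 to 0.049. Since double-labelled cells were collected at E18.5 only, this change cannot be told apart from the difference in the sort.

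By stage, a rise was called in green cells. Relative to the array median, Ldb2 rose by 1.67 from E14.5 to E18.5 in green cells (limma adjusted p = 9.6e-05), while red cells differed by -0.28 (adjusted p = 0.42), by 0.37 on the deposited values (adjusted p = 0.19), and relative to the median by -0.63 without replicate 2 of the E18.5 red cells (adjusted p = 0.019). The rise in green cells was also called on the deposited values (2.37). Endothelial cells and pericytes are another known source of Ldb2. The array means over their markers were 5.32 to 5.47 in E18.5 red cells, 5.40 to 5.61 in green cells and 5.39 to 5.51 in double-labelled cells, and 0 of the 7 rows tested were called between any of these 3 groups. The widest difference was that of Rgs5, a pericyte gene, at -0.94 in red against green cells (adjusted p = 0.25). The array means were 4.69 to 4.75 in E14.5 green cells. These are deposited levels, on which the median row of green cells was itself higher at E18.5 by 0.61. With stage in green cells, relative to the median, 1 marker row was called higher (Rgs5, 1.42, adjusted p = 0.00098) and 1 lower (Kdr, an endothelial receptor, -0.42, adjusted p = 0.016). The part of these cells in the Ldb2 change was not tested.

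Ldb1, the broadly expressed LDB protein, was 8.90, 9.24 and 8.98 in E18.5 red cells, 8.77, 9.11 and 8.69 in green cells and 9.38, 9.61 and 9.05 in double-labelled cells. At E14.5 it was 9.24, 9.14 and 9.04 in red cells and 9.26, 9.51 and 9.32 in green cells. No difference within a stage passed: red minus green was 0.18 at E18.5 (limma adjusted p = 0.63) and -0.22 at E14.5 (adjusted p = 0.73). Relative to the array median it fell with stage, by 0.76 in red cells (adjusted p = 0.0029) and by 1.21 in green cells (adjusted p = 4.2e-05). The fall in green cells was called on the deposited values too (-0.51), and that in red cells was not (-0.10, adjusted p = 0.57). In green cells Ldb1 and Ldb2 thus moved in opposite directions with stage.

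**Figure D2:**
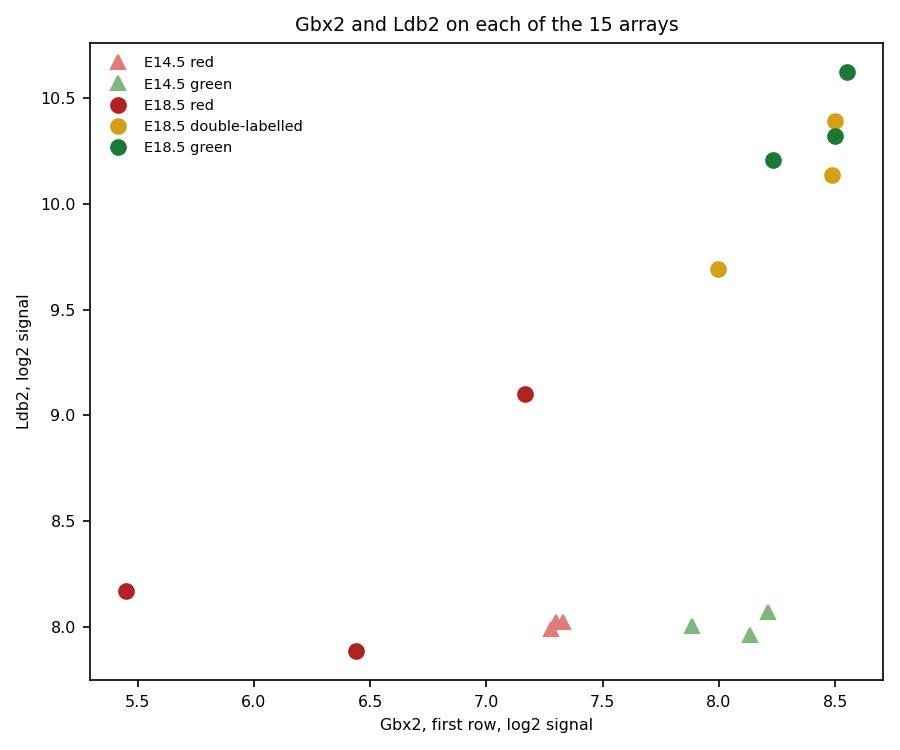
Log2 signal of Ldb2 (y axis) against that of the brighter Gbx2 row (x axis) on 15 arrays, 1 point per array, by group. At E18.5 the 3 red arrays lie low on both axes, and at E14.5 Ldb2 stays between 7.96 and 8.07 while Gbx2 is 7.28 to 7.33 in red and 7.88 to 8.21 in green cells.

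The LMO genes did not share a pattern, and none was called between populations of a stage. Lmo1 ran opposite to Lhx2 and Lhx9. At E18.5 it was 6.91, 7.45 and 7.39 in red cells, 5.81, 6.35 and 6.40 in green cells and 5.94, 7.43 and 6.66 in double-labelled cells, which spanned both. Red was above green in all arrays, by 1.07 (SE 0.31, limma adjusted p = 0.22), and without both narrow arrays by 1.23 (adjusted p = 0.030). At E14.5 Lmo1 was 6.40, 6.33 and 6.82 in red cells and 6.12, 5.59 and 5.51 in green cells, again higher in all red arrays, by 0.78 (adjusted p = 0.29, and 0.034 with the E14.5 arrays alone).

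Lmo3 changed with stage more than with colour. It was 6.65, 6.52 and 6.91 in E18.5 red cells, 6.42, 6.66 and 6.52 in green cells and 5.70, 6.48 and 6.11 in double-labelled cells, against 5.07, 4.75 and 4.81 in E14.5 red cells and 5.18, 5.19 and 5.23 in E14.5 green cells. On these deposited values the E18.5 arrays of a colour lay above its E14.5 arrays without overlap. The median row was itself higher at E18.5, by 0.60 in red and 0.61 in green cells. Relative to the array median the rise was 1.16 in red cells (SE 0.16, limma adjusted p = 0.00018) and 0.63 in green cells (SE 0.16, adjusted p = 0.0074), and both were called on the deposited values (1.82 and 1.33). Red minus green was 0.16 at E18.5 (adjusted p = 0.69) and -0.32 at E14.5 (adjusted p = 0.52), and double-labelled minus red was -0.60 (adjusted p = 0.49), with no overlap. Lmo3 is also expressed in dopamine neurons, whose marker values stand above.

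Lmo4 was 7.91, 8.14 and 8.08 in E18.5 red cells, 7.54, 7.74 and 7.91 in green cells and 7.19, 7.80 and 7.36 in double-labelled cells. At E14.5 it was 7.12, 7.33 and 7.51 in red cells and 7.77, 7.71 and 7.61 in green cells. Red was above green at E18.5 by 0.32 (limma adjusted p = 0.52) and below it at E14.5 by -0.37 (adjusted p = 0.34), without overlap at either stage, although the lowest red and highest green array of E18.5 nearly met. The change between stages, 0.69 (SE 0.22), did not pass (adjusted p = 0.23). Relative to the array median Lmo4 fell by 0.67 in green cells (adjusted p = 0.0028), but the deposited values gave 0.04 (adjusted p = 0.83), so its direction depends on the scaling. In red cells it differed by 0.07 relative to the median (adjusted p = 0.77) and by 0.73 on the deposited values (adjusted p = 0.0011).

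**Figure D3:**
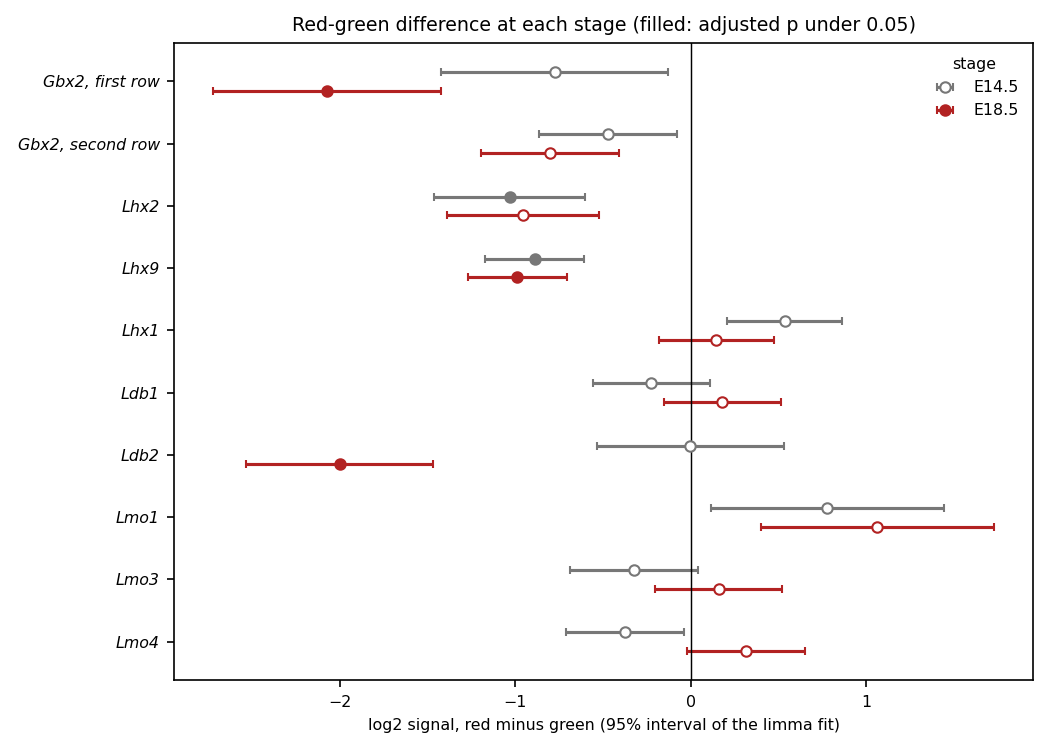
Log2 difference between red and green cells at E18.5 and E14.5 (x axis) for the 10 member rows tested (y axis); bars are 95% confidence intervals from limma and filled symbols mark adjusted p under 0.05. Lhx2 and Lhx9 lie near -1 at both stages, whereas Ldb2 is -2.00 at E18.5 and -0.00062 at E14.5.

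Counted together, 3 of the 10 member rows tested were lower in red than green cells at E18.5 (Gbx2, Lhx9 and Ldb2) and 0 higher, where 0.351% of all rows were called lower and 0.601% in either direction. Groups did not overlap in 7 member rows, against 15.1% of all rows. Between double-labelled and green cells 0 member rows were called, with 3 at an unadjusted p under 0.05 in limma, against 0.0397% of all rows called and 5.75% at an unadjusted p under 0.05. There, 1 member row, Lhx9, did not overlap (8.27% of all rows). Between double-labelled and red cells Gbx2 and Ldb2 were called, both higher, against 0.0227% of all rows called higher and 0.0737% in either direction, and 7 member rows did not overlap (4.23% of all rows). Red and double-labelled arrays of the same replicate number were taken as paired by the correlation rule given below, which the labels do not state. With the replicate as a block the same comparison called 30 rows in place of 13, with Gbx2 and Ldb2 still called. At E14.5 Lhx2 and Lhx9 were called lower in red cells and 0 higher, against 1.61% of all rows called lower and 3.5% in either direction, and 9 member rows did not overlap (28.1% of all rows). These comparisons share arrays: red and green cells of E18.5 each enter 2 of them. The 2 Gbx2 rows are part of these counts. Since EGFP comes from the Gbx2 locus, the sort itself sets them apart, and their place in the counts is not a finding.

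The calls at E18.5 lean on the error estimated from all 15 arrays. With the 9 E18.5 arrays alone, the differences between red and green cells kept their sizes but had limma adjusted p of 0.13 for Gbx2, 0.066 for Lhx9 and 0.081 for Ldb2. Those between double-labelled and red cells had 0.40 for Gbx2 and 0.36 for Ldb2, and both were also lost without replicate 2 (0.098 and 0.092) or replicate 3 (0.13 and 0.11) of the double-labelled cells. That of Ldb2 was lost without replicate 3 of the red cells too (0.072), and that of Gbx2 when dim rows were not filtered (0.052).

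Across stages 7 of 10 member rows were called in red cells, 1 higher and 6 lower, and 7 in green cells, 2 higher and 5 lower. All rows were called often as well: 23.5% in red cells (9.87% higher and 13.7% lower) and 33.7% in green cells (12.9% higher and 20.8% lower). The brighter Gbx2 row fell in red cells, Lmo3 rose in both, Ldb2 rose in green cells and Ldb1 fell in green cells under median centring, quantile normalization and on the deposited values alike. None of these changes can be told apart from the difference in the sort between the stages, and EGFP itself comes from the Gbx2 locus. The falls of Lhx2 relative to the median, by 0.82 in red cells (limma adjusted p = 0.0097) and by 0.95 in green cells (adjusted p = 0.0025), became -0.17 and -0.25 on the deposited values and were not called there. Lhx9 fell by 0.46 in red and 0.41 in green cells relative to the median (adjusted p = 0.023 and 0.030), but the deposited values gave differences of 0.20 and 0.30 that did not pass. The Lhx9 calls were also lost after quantile normalization (adjusted p = 0.086 and 0.080) and with 1 array left out. In red cells this was replicate 1 or 2 of E18.5 or replicate 2 or 3 of E14.5 (highest adjusted p = 0.090), and in green cells replicate 2 or 3 of either stage (highest adjusted p = 0.099). Lhx1 fell by 0.85 in red and 0.51 in green cells (adjusted p = 0.0010 and 0.015), but neither passed on the deposited values (-0.20, adjusted p = 0.25, and 0.19, adjusted p = 0.26). The call in green cells was also lost after quantile normalization (adjusted p = 0.050) and without replicate 1 of the E18.5 or of the E14.5 green cells (0.064 and 0.068). Lmo1 differed by 0.08 in red and -0.26 in green cells, and neither passed (adjusted p = 0.88 and 0.54). On the deposited values these were 0.73, which passed (adjusted p = 0.046), and 0.45, which did not (adjusted p = 0.20).

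Of the other LIM-homeodomain factors, Lhx3, Lhx4, Lhx6, Isl1, Isl2, Lmx1a and Lmx1b were bright enough to be tested and Lhx8 was not, and 0 of the 7 were called within a stage by limma. Isl1, a factor of prethalamic and motor neurons, was 6.89 ± 0.33 (SD, n = 3) in E14.5 red and 6.12 ± 0.32 (SD, n = 3) in green cells, and its difference of 0.77 did not pass in limma (adjusted p = 0.068). It fell by 1.29 relative to the median in red cells with stage (adjusted p = 0.00058). Among 5 other partners of LIM complexes (Lmo2, Rlim, Ssbp2, Ssbp3 and Ssbp4), 0 were called within a stage. With stage in red cells Ssbp3, which binds and stabilises LDB proteins, fell by 0.51 (adjusted p = 0.021) and Ssbp4 rose by 0.52 (adjusted p = 0.026). In green cells Ssbp3 (-0.40, adjusted p = 0.0497) and Lhx3 (-0.50, adjusted p = 0.047) were called lower. The signs of Ssbp3 (0.15 in red and 0.31 in green cells) and Lhx3 (0.20) turned on the deposited values, and each of these 4 calls was lost in at least 1 fit with 1 array left out.

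Robo receptors and their Slit ligands guide thalamic axons. At E14.5, 2 of 6 were called between red and green cells, Slit1 and Slit2, both lower in red cells. Slit2 was 6.52 ± 0.13 (SD, n = 3) in red and 8.98 ± 0.21 (SD, n = 3) in green cells, a 5.51-fold difference (log2 difference -2.46, limma adjusted p = 1.9e-06), and Slit1 differed by -0.98 (adjusted p = 0.0023). At E18.5, 0 of 6 were called, and Slit2 differed by -0.26 (adjusted p = 0.55). Slit2 fell by 2.40 in green cells with stage (adjusted p = 8.6e-08), while Ldb2 rose by 1.67 in the same cells. Robo1 was lower in red cells in all arrays at both stages, by -1.13 at E18.5 (adjusted p = 0.12) and -0.997 at E14.5 (adjusted p = 0.074), and neither difference passed. Robo1 fell with stage by 1.18 in red and 1.09 in green cells relative to the median (adjusted p = 0.0056 and 0.0057), and Robo2 by 1.03 in red cells (adjusted p = 0.0080). Slit1 rose with stage in red cells by 0.72 (adjusted p = 0.0044), and was called on the deposited values too (1.38). On the deposited values the Robo differences were -0.52, -0.39 and -0.38 and were not called.

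Among themselves, the member rows fell into a set that was low in red cells and a set that was not. With stage means subtracted, Pearson's r over the 15 arrays was 0.91 for Gbx2 and Ldb2, 0.86 for the pair of Gbx2 rows, 0.80 for Lhx2 and Lhx9, 0.72 for Gbx2 and Lhx2 and 0.66 for Gbx2 and Lhx9. Lmo1 ran against them, with r of -0.73 to Lhx9, -0.72 to Lhx2 and -0.58 to Gbx2. Lmo3 and Lmo4 had r of 0.78 with each other. These values describe 15 arrays that share groups and, for red and double-labelled cells of E18.5, replicates taken as paired. At E14.5 alone Ldb2 stayed between 7.96 and 8.07 while Gbx2 ranged from 7.28 to 8.21.

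**Figure D4:**
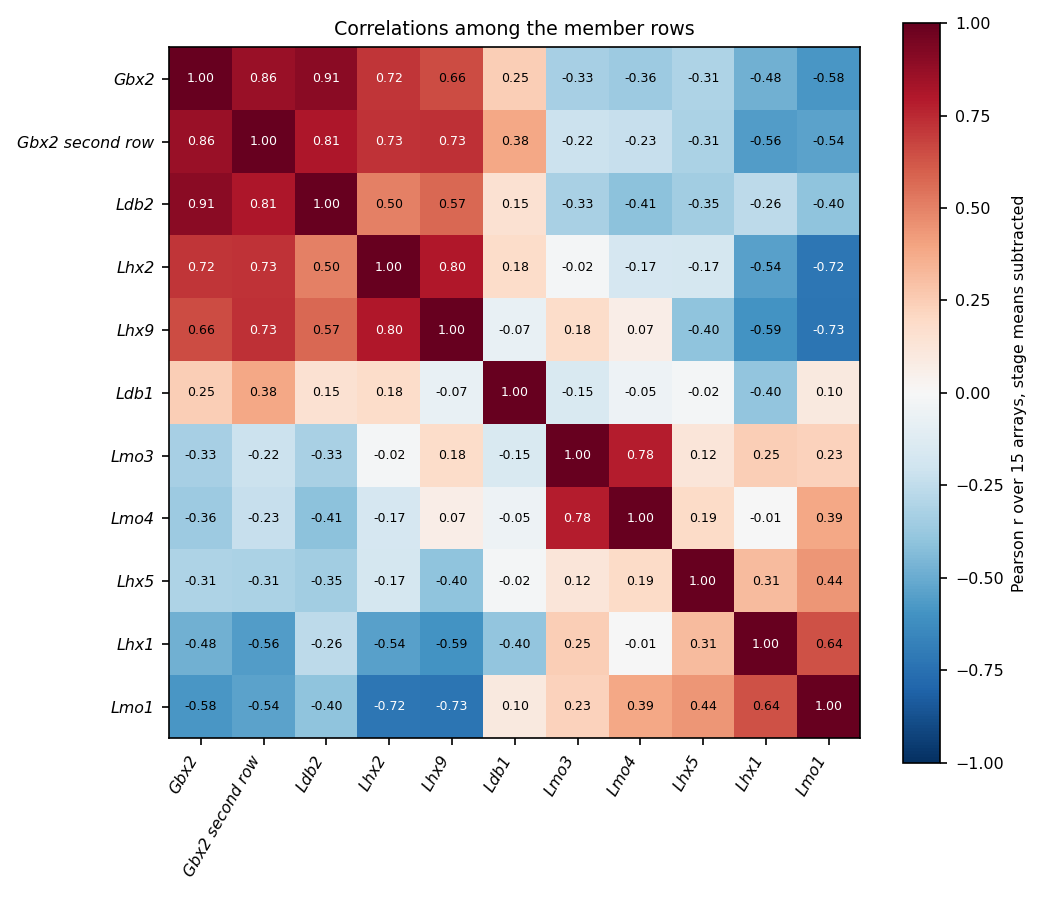
Pearson's r between the 11 member rows over 15 arrays after subtraction of each stage's mean (red positive, blue negative). Gbx2, its second row, Ldb2, Lhx2 and Lhx9 form a block of r from 0.50 to 0.91, and Lmo1 and Lhx1 are negative to all 5.

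The rows most like each of 4 members were taken as the 5 highest r on the same values. For Gbx2 they were Zfp14 (0.95), Vstm2b (0.92), Ldb2 (0.91), Fbln1 (0.90) and Nup107 (0.87). For Ldb2 they were Tox (0.96), Nmbr (0.92), Chst11 (0.92), Gbx2 (0.91) and Car8 (0.90). Of the rows ranked, Gbx2 and Ldb2 were thus each among the 5 most like the other. The groups come from a sort on the Gbx2 locus, so this ranking describes the group differences above once more. For Lhx9 they were 2 rows of Zic5 (0.98 and 0.93), Clybl (0.97), Rnd3 (0.94) and Nek7 (0.94). In the mouse RefSeq annotation of GRCm38.p6 no protein-coding gene lies between Lhx9 and Nek7 on chromosome 1 or between Zic5 and Clybl on chromosome 14, so 3 of the 4 genes are a chromosomal neighbour of Lhx9 or of each other. For Lmo3 they were Jun (0.87), Ptpn4 (0.87), Cbln1 (0.86), Fabp7 (0.84) and Pacrgl (0.84). The Lmo3 values fell to 0.68 to 0.81 over the 13 arrays other than the narrow ones, while those of the other 3 members stayed at 0.89 or above.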

How the data were processed

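Total RNA of FACS-sorted thalamic cells was hybridised to Affymetrix expression arrays. Per the labels' protocols, RNA was extracted with the RNeasy kit and 10 ng of it was amplified with a Nugen Ovation Pico kit. The log2 signals deposited by the authors were made with Affymetrix Expression Console, per the submitters' processing notes. The version, algorithm and genome build, and whether the stages were normalized together, are not given in the sources used here. Signals were used as deposited. Arrays have no read depth, and 3 arrays per group limit the precision.

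Of 33794 rows, 23521 named 1 gene and were used, while 1814 named several and 8459 none. Tests left out the dimmest 25% by mean over the arrays (below 5.07). In R 4.3.3, limma 3.58.1 estimated 1 mean per group from the 15 arrays together (10 residual degrees of freedom, 13.8 after moderation), two-sided, with Benjamini-Hochberg adjustment over 17641 rows and a threshold of 0.05. The fit was also run on simulated data in which each row had the same spread in all groups. Those data could not show how it fares where the spread differs between groups, as for Gbx2. Stage comparisons used arrays centred on their medians, since the median stage difference as deposited was 0.60 in red and 0.61 in green cells. Figures were drawn with matplotlib 3.10.9.

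The members, lists and settings were chosen with earlier results of these data known. All members, related genes past the threshold and, for 4 members, the 5 most similar of the rows kept for that ranking were named. A few further genes (Gad2, Isl1, Robo1, Tcf7l2 and Slc17a6 among them) were named after their values were seen. Alternatives were no filter, 1 row per gene, quantile normalization, the replicate block, each stage alone, deposited values, omission of both narrow arrays and omission of each array. The labels do not say whether equal replicate numbers pair samples. They were taken to do so where every same-number correlation of deviations from group means exceeded 0.1, a limit set for this purpose. This held for E18.5 red and double-labelled cells (0.67, 0.51 and 0.48), where the highest correlation between unlike numbers was 0.39. It held for no other pair of groups, although each of their same-number correlations was positive. E18.5 red and green cells had 0.47, 0.42 and 0.083, and double-labelled and green cells 0.37, 0.42 and 0.071. E14.5 red and green cells had 0.071, 0.21 and 0.27. The limit lies just above the lowest of these values, so whether these groups are paired stays uncertain.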

Additional observations from a re-analysis of the deposited data

Results flagged for a closer look

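The red-green difference changed with stage for 3 genes by limma's test of the difference between stages. These changes cannot be told apart from the sort, in which double-labelled cells were collected at E18.5 only. For Ldb2 the difference at E18.5 minus that at E14.5 was -2.00 (adjusted p = 0.013). For Slit2 it was 2.20 (adjusted p = 3e-04), with log2 differences of red minus green of -2.46 at E14.5 and -0.26 at E18.5. For Slit1 it was 1.04 (adjusted p = 0.032), a call that was lost after quantile normalization (adjusted p = 0.081) and without 8 of the 12 red and green arrays, left out 1 at a time (highest adjusted p = 0.11).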

How the results depend on the processing

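Among called results, signs turned only in stage comparisons on the deposited values without centring: Lhx9 was 0.20 in red and 0.30 in green cells, Ssbp3 0.15 and 0.31, and in green cells Lhx1 was 0.19, Lhx3 0.20 and Lmo4 0.037. Differences that were not called also turned there (Ldb2 in red cells, and Lmo1 and both Gbx2 rows in green cells). Elsewhere, differences of member rows that were not called turned in double-labelled against green cells (both Gbx2 rows and Lhx2 after quantile normalization, both Gbx2 rows and Lhx1 without the narrow arrays), in Ldb2 at E14.5 after quantile normalization (0.069) and in the stage dependence of Lhx2 without the narrow arrays (-0.22). Leaving out 1 array turned further differences near 0.

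Counts of called rows moved more than the members' differences. Red against green at E18.5 called 106 rows and 3 member rows; the replicate block called 241 and 6, omission of both narrow arrays 224 and 5, and the E18.5 arrays alone 13 and 0, with 54 to 104 rows and 3 to 4 member rows when 1 array was left out. Red and green cells of E18.5 did not meet the rule for pairing, because of replicate 3 (0.083 against the limit of 0.1). In this block fit Lhx2, Lmo1 and the second Gbx2 row were called in addition (adjusted p = 0.044, 0.03 and 0.018). Double-labelled against green called 7 rows, and 13, 26 and 0 in the same order, with 0 to 9 when 1 array was left out. Double-labelled against red called 13 rows and 2 member rows; quantile normalization called 20 rows, the block 30, omission of the narrow arrays 36 and the E18.5 arrays alone 4 and 0 member rows, no filter left 1 member row, and leaving out 1 array gave 7 to 23 and 0 to 3. Red against green at E14.5 called 618 rows and 2 member rows, with 1460 without the narrow arrays, 1472 and 5 member rows with E14.5 alone, 1 member row after quantile normalization, and 254 to 549 and 1 to 2 when 1 array was left out. With the block, Lhx1 was called there (adjusted p = 0.048).

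Across stages, red cells had 4154 rows and 7 member rows called, with 8314 without a filter, 2721 with the block, 6622 without the narrow arrays, and 12698 and 4 member rows as deposited. Green cells had 5951 and 7, with 9916 without a filter, and 12909 and 3 as deposited. The block ended the calls of Lhx9 in red and green cells (adjusted p = 0.1 and 0.11) and of Lhx1 in green cells (0.28). The stage dependence called 189 rows and 1 member row, with 349 under the block, 488 without the narrow arrays, and 80 to 223 and 1 to 2 when 1 array was left out. The cause of these changes was not tested. With 3 arrays a group, small differences of dim genes such as Lhx1 and Lhx5 cannot be read.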

Other observations

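The row that named Lhx1 together with the antisense gene Lhx1os had log2 signals of 5.61 ± 0.17 (SD, n = 3) in E18.5 red cells, 5.60 ± 0.36 in green cells and 5.30 ± 0.14 in double-labelled cells, and of 5.33 ± 0.19 in E14.5 red cells and 5.12 ± 0.14 in green cells. It was left out of every comparison.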
